A study of Mus musculus with 6 samples.

Results

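The data concern 38 neighbouring genes at the start of mouse chromosome 16, from Mefv to Alg1, out of 18193 genes measured on 6 arrays. A gene was included when an Affymetrix probe set with exactly 1 gene symbol represented it and its start lay between those of Mefv and Alg1 in assembly GRCm38 (chr16:3706974-5233621), a span of 1.527 Mb. The rule is one of position, but the stretch and its ends were chosen because differences between the groups of these arrays were known, so every difference given for its genes is a description without a test. The annotation lists 60 genes with a start in this interval, 39 of them protein-coding, and the protein-coding genes Zfp174 and Sec14l5 were not analysed here. No gene before Mefv was measured, so the comparison with neighbours rests on the 20 measured genes that follow Alg1.

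RNA came from 344SQ, a murine lung cancer cell line grown in RPMI medium with serum. In 3 samples the cells carried a control short hairpin RNA (shRNA). In the other 3 the hairpin was directed at Pik3ca, the gene of p110-alpha, a catalytic subunit of phosphoinositide 3-kinase. The vectors were introduced by lipid transfection, and both groups were otherwise the same line without a further treatment named. The labels do not say how long after transfection RNA was taken, whether transfected cells were selected or cloned, or what the control hairpin targets.

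Intensities are linear, and each difference is the PIK3CA shRNA mean less the control mean after adding 16 and taking log2, which makes the differences of dim genes smaller. Pik3ca itself fell from 2379 ± 66.3 to 1236 ± 13.1 (SD, n = 3 each), a difference of -0.94 on the log2 scale (limma adjusted p = 0.000762). The 7 epithelial markers measured summed to between 42426 and 45174 in control and between 43304 and 44111 in PIK3CA shRNA arrays; Cdh1 alone, the E-cadherin gene, averaged 11342 in control and 11049 in PIK3CA shRNA arrays. The 5 leukocyte markers summed to between 484 and 683 in control and between 545 and 647 in PIK3CA shRNA arrays. Endothelial markers (4) summed to 493 to 578 and 526 to 645, and fibroblast markers (6) to 566 to 584 and 384 to 671, in the same order. Of these 22 markers 1 passed the threshold, the fibroblast marker Dcn, which fell from 74.1 ± 8.77 to 37.6 ± 2.76 (SD, n = 3 each; difference -0.75, limma adjusted p = 0.00918); the part of other cell types in the results was not tested. Median intensity per array was 134.1 to 134.7. With 3 arrays a group the precision is limited, and since the labels do not call the replicates separate cultures, the spread behind each p-value may be technical rather than that of repeated cultures. In these bulk samples, fewer cells of a type and less RNA per cell cannot be told apart.

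Genes that lie side by side on a chromosome need not act together, and most of the genes from Mefv to Alg1 are known for unrelated work. The stretch holds Crebbp, which encodes CBP, an acetyltransferase and transcriptional coactivator that binds CREB and many other factors. It also holds several parts of the mitochondrial protein-folding and import machinery (Trap1, Pam16, Dnaja3), chromatin proteins (Glyr1, Ubn1), DNA repair factors (Slx4, Nudt16l1), and enzymes of N-glycan building and lysosomal enzyme tagging (Alg1, Nagpa).

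Across the stretch, most genes brighter than the median gene read higher in PIK3CA shRNA cells, commonly by between 1.25 and 2.05 times. None of the 38 genes passed the threshold in the other direction. No detection calls were used, so brightness, the mean over all 6 arrays, does not by itself show that a gene is expressed. By limma over all genes, 20 of the 38 were past adjusted p 0.05 and higher, against 5.88% of all genes tested, and 0 were lower, against 5.62%; at an unadjusted p under 0.05 only Septin12 was lower. The median difference of the 38 genes was 0.49, with quartiles of 0.17 and 0.81, where the median of all 18193 genes was -0.01. The difference was above 0 in 34 genes and below 0 in Olfr15, Dnase1, Septin12 and AU021092. The 3 PIK3CA shRNA arrays lay above all 3 control arrays in 25 genes, against 16.1% of all genes, and below them in Septin12 alone, against 17.0%, so groups were apart in 26 of 38, against 33.1%. Mean intensity was at least 1.5 times that of control in 17 of the 38 (7.34% of all genes) and at least 2 times in 4 (3.16% of all genes), namely Zfp597, Vasn, Smim22 and Nagpa. The probe set used for Nagpa was the dimmer of its 2 in control. These counts restate the contrast by which the stretch was chosen.

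**Figure D1:**
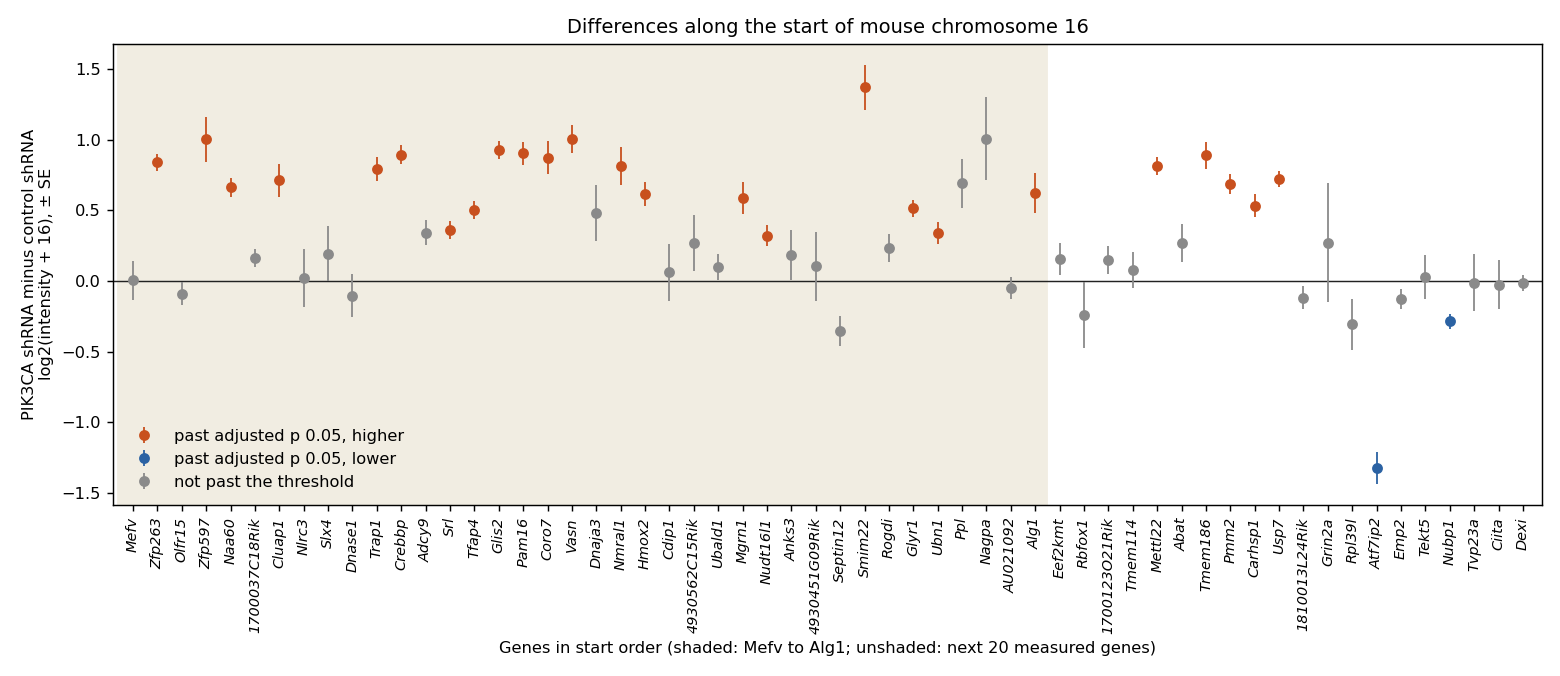
Difference between groups on the log2(intensity + 16) scale for the 38 genes from Mefv to Alg1 (shaded) and the next 20 measured genes, in start order, with standard errors of the limma fit (3 arrays against 3). Orange points run through most of the shaded part, and 5 of them from Mettl22 to Usp7 lie beyond its end.

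The shift had a similar size on every array of the PIK3CA shRNA group. Measured from each gene's control mean, the median over the 38 genes was 0.47, 0.45 and 0.49 in PIK3CA shRNA replicates 1, 2 and 3. It was 0.00, 0.00 and 0.03 in control replicates 1, 2 and 3, and between -0.02 and 0.01 for the median of all genes on all 6 arrays. Measuring from the control mean holds the control values near 0, and scaling to a common median largely does so for all genes.

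Among transcription factors and coactivators, Crebbp (chr16:4081334-4213957) read 1022, 1109 and 1149 on the control arrays. On the PIK3CA shRNA arrays it read 2013, 2001 and 2123. The groups did not overlap, and the mean was 1.87 times that of control (difference 0.90, SE 0.07). Glis2, which encodes a Krüppel-like zinc finger factor needed for kidney maintenance, read 640, 627 and 618 in control and 1190, 1161 and 1283 in PIK3CA shRNA cells (difference 0.93, SE 0.06). The groups were well apart. Tfap4, a basic helix-loop-helix leucine zipper factor, differed less, from 635 ± 24.9 to 908 ± 34.2 (SD, n = 3 each; difference 0.50, SE 0.06). The zinc finger gene Zfp263 read 365, 366 and 353 in control and 691, 637 and 652 in PIK3CA shRNA cells. Zfp597, another zinc finger gene, read 259, 199 and 165 in control and 419, 439 and 417 in PIK3CA shRNA cells, so its control arrays were the more scattered group. Differences were 0.84 (SE 0.06) for Zfp263 and 1.00 (SE 0.16) for Zfp597.

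The mitochondrial genes also read higher in PIK3CA shRNA cells. Trap1, the mitochondrial member of the HSP90 chaperones, went from 836 ± 70.3 to 1460 ± 81.6 (SD, n = 3 each), a difference of 0.79 (SE 0.09). Pam16, a J-like subunit of the motor that pulls proteins into the matrix, read 816, 793 and 840 in control and 1686, 1414 and 1532 in PIK3CA shRNA cells (difference 0.90, SE 0.08). The groups were far apart in both genes. Dnaja3, a mitochondrial HSP40 cochaperone, read 494, 834 and 735 in control and 985, 880 and 968 in PIK3CA shRNA cells. Its groups did not overlap, but control replicate 1 was low and the difference of 0.48 (SE 0.20) was not past the threshold. Another bright Dnaja3 probe set went from 427 ± 71.5 to 722 ± 55.4 (SD, n = 3 each) without overlap, by 0.74. A dim one differed by -0.35 with overlap. Dnaja3 passed the threshold by the most variable probe set (0.74) but not as the mean of its probe sets (0.29).

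Genes of membranes, the Golgi apparatus and signalling included Vasn, which encodes vasorin, a cell-surface protein that binds TGF-beta. Vasn read 838, 795 and 729 in control and 1766, 1437 and 1592 in PIK3CA shRNA cells, 2.03 times the control mean. Coro7, which encodes a coronin of the Golgi, read 700, 610 and 517 in control and 1136, 1112 and 1114 in PIK3CA shRNA cells. Here the PIK3CA shRNA arrays were close together and the control arrays were spread. Naa60, an N-terminal acetyltransferase of the Golgi, went from 399 ± 26.4 to 641 ± 10.6 (SD, n = 3 each; difference 0.66, SE 0.07). Mgrn1, which encodes the ubiquitin ligase mahogunin, read 343, 382 and 353 in control and 495, 517 and 640 in PIK3CA shRNA cells (difference 0.59, SE 0.11). Its other 2 probe sets read less, 0.25 from one almost as bright (339 to 350.4 in control) and 0.14 from a dim one. Mgrn1 thus differed by 0.33 as the mean of its probe sets and by 0.14 by the most variable one, and both ended its call. Adcy9, an adenylyl cyclase that makes cAMP, read 218, 204 and 245 in control and 286, 270 and 301 in PIK3CA shRNA cells. Its groups did not overlap, and its difference of 0.34 (SE 0.09) was not past the threshold. Of its other 3 probe sets, 2 of similar brightness were apart by 0.62 each, 1.58 times the control mean, and a dim one differed by 0.12 with overlap. Adcy9 passed the threshold with a pseudocount of 64, without dim genes, as the mean of its probe sets (0.43) and by the most variable one (0.62). Smim22, a gene for a small membrane protein, had the greatest difference of the 38 by the probe set used, 1.37 (SE 0.16). It read 120, 180 and 159 in control and 463, 411 and 379 in PIK3CA shRNA cells. This rested on 1 of its 2 probe sets, as given below.

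The N-glycan and lysosomal genes both lie at the far end of the stretch. Alg1 adds the innermost mannose to the lipid-linked oligosaccharide from which N-glycans are made, and it is the last gene inside the interval (chr16:5233621-5244909). It read 474, 321 and 383 in control and 608, 606 and 604 in PIK3CA shRNA cells (difference 0.62, SE 0.14). The PIK3CA shRNA arrays nearly coincided, while the control arrays were spread. Nagpa, the enzyme that uncovers the mannose 6-phosphate tag of lysosomal enzymes, was dim, at 91.0, 56.7 and 112 in control and 126, 221 and 222 in PIK3CA shRNA cells. Its difference of 1.01 had the large SE of 0.29 and was not past the threshold. The other Nagpa probe set, which was brighter in control (98.6 against 86.4), differed by 0.06 with overlap.

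Of the chromatin and DNA repair genes, Glyr1, a nucleosome-binding protein gene, went from 1362 ± 57.0 to 1951 ± 42.1 (SD, n = 3 each; difference 0.51, SE 0.06). Ubn1, a subunit of the HIRA complex that deposits histone H3.3, went from 921 ± 58.5 to 1170 ± 70.0 (SD, n = 3 each; difference 0.34, SE 0.08). Nudt16l1, whose product binds the repair protein 53BP1, was the brightest of the 38 genes in these probe intensities, which do not rank transcripts. It read 1700, 1794 and 1842 in control and 2115, 2392 and 2179 in PIK3CA shRNA cells, 1.25 times the control mean (difference 0.32, SE 0.08). The probe set used carries the mark for probes close to other sequences. The other Nudt16l1 probe set went from 436 ± 7.55 to 664 ± 23.0 (SD, n = 3 each), without overlap and by more, 1.52 times the control mean (difference 0.59). Slx4, the scaffold of a set of structure-specific nucleases, read 236, 212 and 282 in control and 210, 320 and 320 in PIK3CA shRNA cells. Its groups overlapped, and PIK3CA shRNA replicate 1 was the lowest of all 6 arrays.

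Of the remaining genes past the threshold, Cluap1, a component of intraflagellar transport complex B of cilia, differed by 0.71 (SE 0.12). Nmral1, an NADPH sensor gene, differed by 0.81 (SE 0.13). Another Nmral1 probe set, which was brighter in control (194 against 178), differed by 0.58 without overlap. Srl, which encodes the sarcoplasmic reticulum protein sarcalumenin of muscle, differed by 0.36 (SE 0.06) at intensities of 138 to 154 in control and 190 to 196 in PIK3CA shRNA cells. Hmox2, the constitutive haem oxygenase gene, differed by 0.62 (SE 0.08). Hmox2, Coro7 and Ppl belong to gene families studied in their own right. Ppl, which encodes the desmosomal plakin periplakin, differed by 0.69 (SE 0.18) without passing. Without these 3 genes the median difference of the stretch was 0.36, and 18 of 35 genes were past the threshold and higher.

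Groups overlapped in 12 genes: Mefv, Olfr15, Nlrc3, Slx4, Dnase1, Cdip1, 4930562C15Rik, Ubald1, Anks3, 4930451G09Rik, Rogdi and AU021092. Mefv, which encodes the innate immune sensor pyrin of myeloid cells, read 291, 316 and 296 in control and 356, 311 and 247 in PIK3CA shRNA cells, a difference of 0.00 (SE 0.14). It is the first gene inside the interval, so the stretch opens with a gene whose groups overlapped. Nlrc3, a NOD-like receptor gene of lymphocytes, lay between 46.9 and 82.1 on all 6 arrays. Dnase1, the secreted nuclease gene, lay between 6.35 and 16.5, near the pseudocount. Olfr15, an olfactory receptor gene, lay between 210 and 259. Ubald1 differed by 0.10 (SE 0.09) and Rogdi by 0.23 (SE 0.10), both above the median brightness. Anks3, an ankyrin repeat gene linked to cilia, 4930562C15Rik, 4930451G09Rik and AU021092 lay between 46.5 and 140 on every array. The 2 other genes short of the threshold were 1700037C18Rik, which read 194 to 211 in control and 220 to 240 in PIK3CA shRNA cells, and Septin12, a septin gene of sperm. Septin12 was dim and differed by -0.35 (SE 0.11), at 23.6 to 28.2 in control and 12.4 to 20.1 in PIK3CA shRNA cells.

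**Figure D2:**
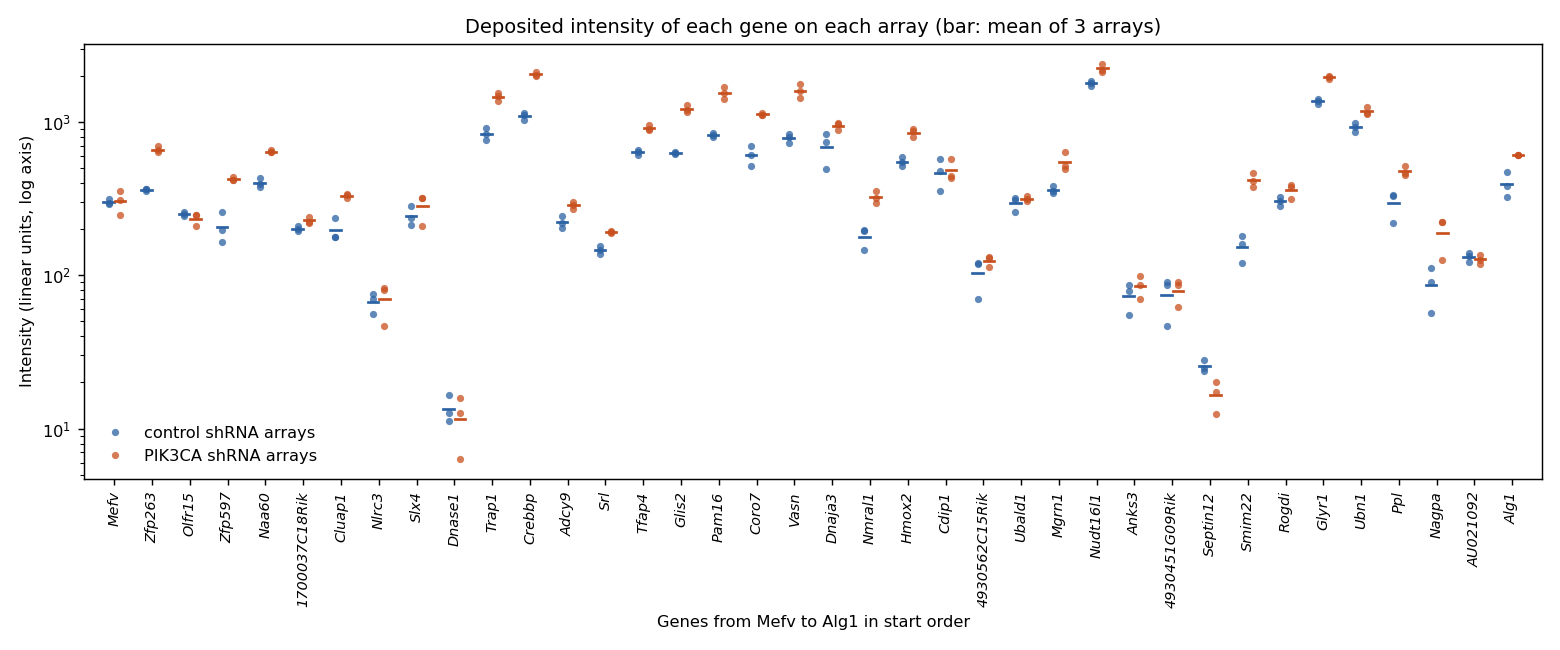
Deposited intensity, on a log axis, of the 38 genes on each control shRNA and PIK3CA shRNA array, in start order, with bars at the group means of 3 arrays. In each of the 12 genes from Trap1 to Hmox2 the orange points lie above the blue points, which are spread for Dnaja3 and Coro7, while the dim genes Nlrc3, Dnase1, Anks3 and 4930451G09Rik overlap.

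Brightness, the mean over all 6 arrays, went with the difference, in part by construction, because raised PIK3CA shRNA values enter it. Smim22 counts as brighter than the median gene at 153 in control, while Olfr15 counts as dimmer at 250. Of the 26 genes brighter than the median gene, 18 were past the threshold and higher, with a median difference of 0.62, where 793 of the 9096 genes this bright were called higher. Of the 12 dimmer genes, only Srl and Nmral1 were past it, and the median difference was 0.13. Over the 38 genes, the control level and the difference had a Pearson's r of 0.43 and a Spearman's rho of 0.39. These are descriptions across genes, which share the 6 arrays and are not independent replicates, and the control level enters both quantities. The pseudocount lowers the differences of dim genes. With a pseudocount of 1 in its place the median over the stretch was 0.50.

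**Figure D3:**
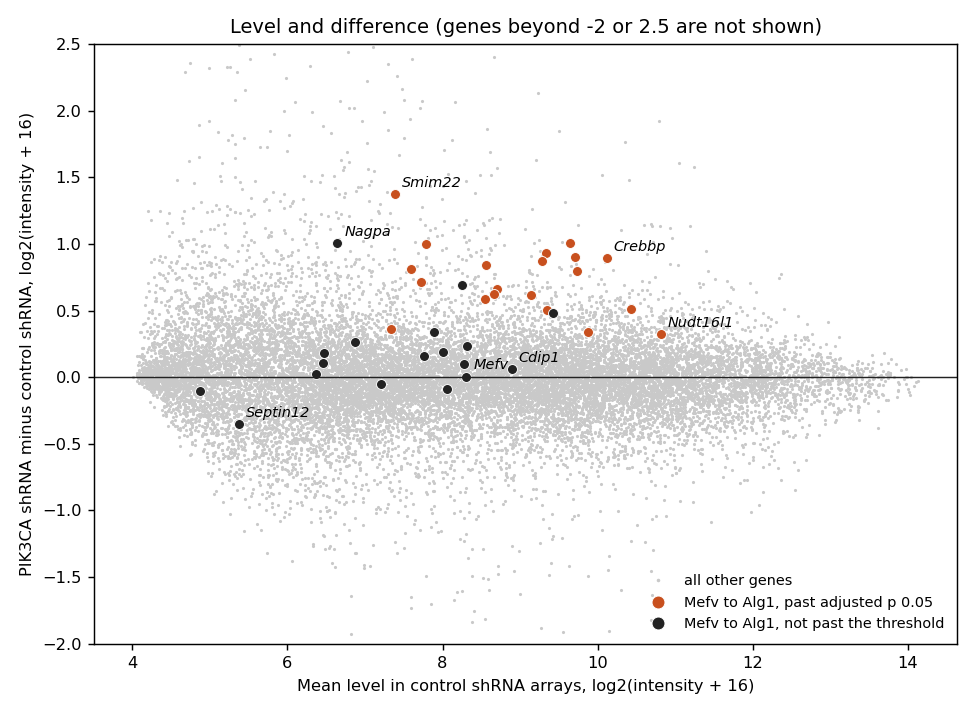
Mean level in control shRNA arrays against the difference between groups, both on the log2(intensity + 16) scale, for the genes from Mefv to Alg1 (large points) and all other genes (small grey points). The members past the threshold lie above 0.3 at middle and high levels, with Nudt16l1 the brightest, and Septin12 is the lowest point of the stretch.

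Along the stretch the higher genes were not evenly spread. From Trap1 to Hmox2, 12 genes in a row (an interval picked after its values were seen) had groups that did not overlap, 10 of them past the threshold, with a median difference of 0.80. In the 10 genes before Trap1 the median was 0.18 with 4 past the threshold, and in the 16 genes after Hmox2 it was 0.29 with 6. The genes from Trap1 to Hmox2 were also brighter, with a median control intensity of 632 against 225 before and 294 after them, and 10 of 12, 6 of 10 and 10 of 16 genes were above the median brightness. The part of brightness in this was not tested. Genes past the threshold and genes that overlapped were direct neighbours in many places. Dnase1 and Trap1 share 54 bases of the chromosome on opposite strands, and they differed by -0.11 and 0.79. Hmox2 and Cdip1 share 1282 bases on opposite strands and differed by 0.62 and 0.06, the latter from 1 of 4 Cdip1 probe sets; the other 3 read 0.72, 0.63 and 0.39, and their mean with it differed by 0.45 and was past the threshold. Vasn lies wholly within Coro7 on the other strand, and they differed by 1.00 and 0.87. Zfp597 and Naa60 share 11882 bases, and Glis2 and Pam16 share 8481. How the probe sets divide such overlapping pairs was not tested.

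Higher genes were also found beyond the right-hand limit at Alg1, though not directly next to it. The genes next to it outside were Eef2kmt, a lysine methyltransferase gene near the lowest intensities (9.63 to 11.4 in control and 9.90 to 18.4 in PIK3CA shRNA cells), and Rbfox1, a neuronal splicing factor gene (170 to 246 and 149 to 248). Neither stood apart between groups. Next came 1700123O21Rik and Tmem114, both dim, whose groups also overlapped. Further on, Mettl22, Tmem186, Pmm2, Carhsp1 and Usp7 were past the threshold and higher, and they are named here after their values were seen. Mettl22 starts 4764 kb after the start of Mefv, and Alg1 starts 1527 kb after it. Usp7, a deubiquitinase that acts on MDM2 and p53, read 1494, 1547 and 1470 in control and 2422, 2475 and 2562 in PIK3CA shRNA cells. Pmm2, a phosphomannomutase that supplies mannose for N-glycans, went from 443 ± 26.1 to 723 ± 38.1 (SD, n = 3 each). The differences of these 5 genes, from 0.53 for Carhsp1 to 0.89 for Tmem186, were of the size seen inside the stretch.

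After Usp7 no gene of the 20 was past the threshold and higher. The next gene, 1810013L24Rik, was bright and differed by -0.12 (SE 0.08). Atf7ip2 read 168, 155 and 141 in control and 44.7, 51.4 and 61.5 in PIK3CA shRNA cells (difference -1.32, SE 0.11), and the iron-sulfur protein gene Nubp1 differed by -0.28 (SE 0.05). Both are named after their values were seen. The median difference was 0.40 over the 10 genes from Eef2kmt to Usp7 and -0.07 over the 10 after them. Over all 20 it was 0.05, with 5 higher and 2 lower past the threshold. On the rest of chromosome 16, 36 of 535 genes were higher and 24 lower, with a median difference of 0.00. The contrast between the stretch and these genes was not tested, because the stretch was picked on it.

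Several of the genes were read by more than 1 probe set, which gives a second look at the same RNA. The 38 genes had 75 probe sets, and 22 genes had at least 2. Of the 37 probe sets not used for a gene, 23 had all PIK3CA shRNA arrays above all control arrays, 0 had them below and 14 overlapped. Among the 11 of them that were brighter than the median gene, 10 were higher without overlap. The same shares over all probe sets were not counted, so these counts have no background of their own. By the 1 probe set used per gene, 16.1% of all genes were higher without overlap and 17.0% lower. Among the 9096 genes brighter than the median gene, 2146 were higher without overlap and 2278 lower. The counts also come from the contrast on which the stretch was chosen. All 4 probe sets of Crebbp were higher without overlap, by 0.90, 1.01, 0.98 and 1.96, the last from a dim probe set at 10.5 ± 2.08 in control and 88.6 ± 24.7 in PIK3CA shRNA cells (SD, n = 3 each). Both probe sets of Zfp263 (0.84 and 0.99) and of Trap1 (0.79 and 0.91) were close to each other.

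Other genes had probe sets that disagreed. For Cdip1, a pro-apoptotic gene induced by p53, the brightest probe set differed by 0.06 (SE 0.20), while the other 3 were higher without overlap, by 0.72, 0.63 and 0.39. For Smim22 it was the reverse: the brightest probe set differed by 1.37 and the other, at 135 ± 36.8 in control and 132 ± 24.2 in PIK3CA shRNA cells (SD, n = 3 each), by -0.02. The 2 Glis2 probe sets read 0.93 and 0.20, and the 2 Vasn probe sets 1.00 and 0.52. The 6 Coro7 probe sets ranged from 0.15 to 1.60, and the 2 Nagpa probe sets read 1.01 and 0.06. The dimmer Anks3 probe set differed by 1.51, from 24.8 ± 2.35 to 102 ± 23.6 (SD, n = 3 each). Of the probe sets used for the 38 genes, 10 carry the manufacturer's mark for probes shared with other transcripts or close to other sequences, among them those of Trap1, Adcy9, Pam16, Coro7, Vasn, Nmral1, Smim22 and Glyr1. What such probes add was not tested.

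**Figure D4:**
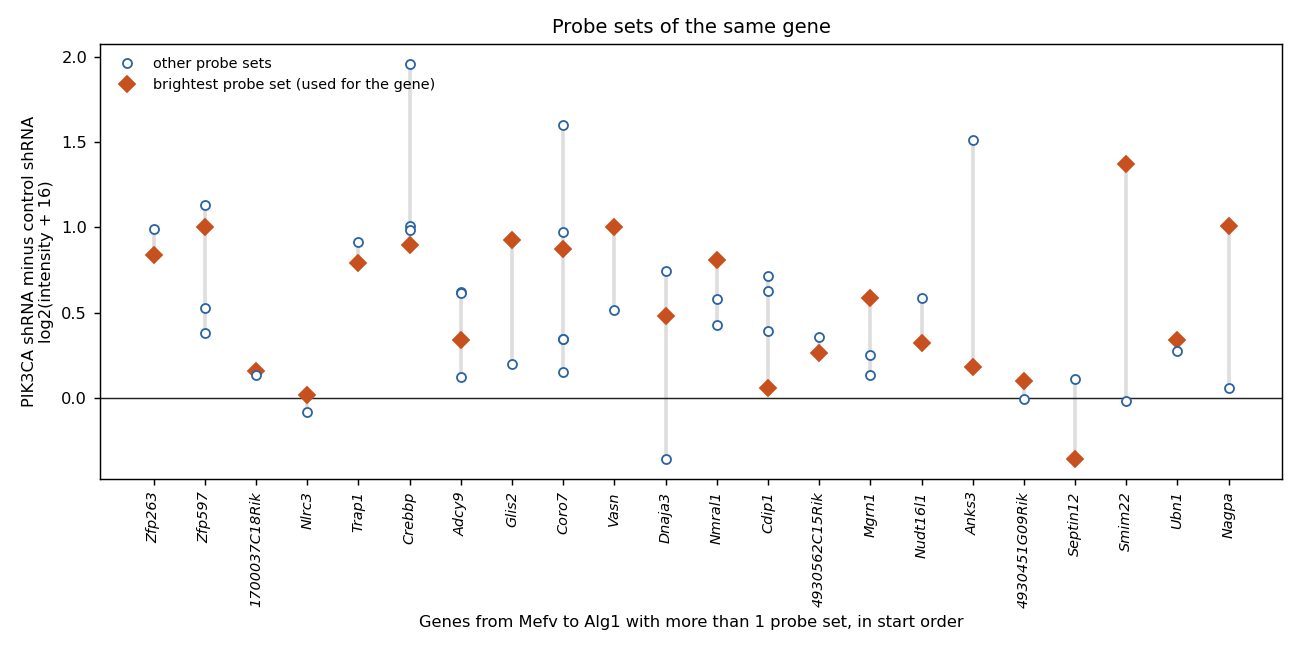
Difference between groups on the log2(intensity + 16) scale for every probe set of the 22 genes with more than 1, with the brightest as a diamond and the others as open circles. Trap1 and Zfp263 probe sets lie close together, and those of Smim22, Anks3, Nagpa and Cdip1 lie apart.

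Fewer genes of the stretch were past the threshold when any 1 array was left out. Of the 20 genes past the threshold, 12 stayed past it whichever 1 of the 6 arrays was left out, namely Zfp263, Naa60, Trap1, Crebbp, Tfap4, Glis2, Pam16, Coro7, Vasn, Hmox2, Smim22 and Glyr1. The calls of Zfp597, Cluap1, Srl, Nmral1, Mgrn1, Nudt16l1, Ubn1 and Alg1 ended without at least 1 array. Those of Nudt16l1 and Ubn1 ended whichever array was left out. The count was 16, 14 and 14 without control replicates 1, 2 and 3. It was 12, 12 and 13 without PIK3CA shRNA replicates 1, 2 and 3. Over all genes the calls fell too, from 2093 to between 945 and 1138 without 1 array. The 20 differences stayed above 0 in each of these fits.

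Promoter sequences were available for 31 of the 38 genes from RefSeq (GRCm38.p6), as windows from 250 bases before to 50 bases after an annotated start; Glis2, Nmral1, Ppl, Srl, Tfap4, AU021092 and 4930451G09Rik had no entry. Shown here are 6 windows: a head-to-head pair of neighbours that differed in their values (Cluap1 and 1700037C18Rik), the Ubn1 side of a pair that both read higher (Ubn1 and Glyr1), and 3 genes with large, steady differences. Capitals mark matches, on either strand, to 8 short motifs: the cAMP response element TGACGTCA, the E-box CACGTG, the E-box form bound by the Tfap4 product CAGCTG, the forkhead motif GTAAACA, the GC box GGGCGG, the box named CCAAT, the ETS motif CCGGAAG and the TATA-type box TATAAA. Sequences run 5′ to 3′ on the gene's own strand.
Cluap1 (chr16:3908759-3909058, plus strand): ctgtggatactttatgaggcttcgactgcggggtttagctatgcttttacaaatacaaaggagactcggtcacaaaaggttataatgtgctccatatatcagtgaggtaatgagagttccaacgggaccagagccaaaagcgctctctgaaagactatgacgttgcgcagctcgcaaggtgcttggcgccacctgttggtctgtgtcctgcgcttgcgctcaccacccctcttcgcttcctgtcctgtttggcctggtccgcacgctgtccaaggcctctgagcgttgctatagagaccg
1700037C18Rik (chr16:3908640-3908939, minus strand): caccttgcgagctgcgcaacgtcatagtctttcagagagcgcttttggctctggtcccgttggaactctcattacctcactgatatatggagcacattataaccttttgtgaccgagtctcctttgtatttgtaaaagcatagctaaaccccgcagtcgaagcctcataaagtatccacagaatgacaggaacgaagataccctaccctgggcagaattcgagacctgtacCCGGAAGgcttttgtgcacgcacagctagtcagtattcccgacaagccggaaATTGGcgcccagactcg
Crebbp (chr16:4213355-4213654, minus strand): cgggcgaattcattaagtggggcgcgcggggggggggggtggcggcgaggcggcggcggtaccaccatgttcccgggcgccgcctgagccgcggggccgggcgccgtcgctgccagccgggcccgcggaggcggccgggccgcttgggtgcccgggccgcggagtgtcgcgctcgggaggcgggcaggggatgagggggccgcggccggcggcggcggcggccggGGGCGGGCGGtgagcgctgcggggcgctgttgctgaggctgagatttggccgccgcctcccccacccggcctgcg
Pam16 (chr16:4624897-4625196, minus strand): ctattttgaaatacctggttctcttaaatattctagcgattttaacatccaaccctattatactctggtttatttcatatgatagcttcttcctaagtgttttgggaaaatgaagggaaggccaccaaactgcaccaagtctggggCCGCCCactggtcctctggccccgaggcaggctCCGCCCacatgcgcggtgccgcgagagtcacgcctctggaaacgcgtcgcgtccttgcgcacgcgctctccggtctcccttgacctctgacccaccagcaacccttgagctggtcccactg
Vasn (chr16:4639695-4639994, plus strand): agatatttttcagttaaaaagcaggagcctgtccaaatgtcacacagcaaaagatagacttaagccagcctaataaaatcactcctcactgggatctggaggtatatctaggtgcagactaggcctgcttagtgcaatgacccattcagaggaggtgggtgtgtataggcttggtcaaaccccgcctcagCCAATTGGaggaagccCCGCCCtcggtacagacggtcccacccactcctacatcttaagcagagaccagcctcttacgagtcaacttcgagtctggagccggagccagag
Ubn1 (chr16:5049807-5050106, plus strand): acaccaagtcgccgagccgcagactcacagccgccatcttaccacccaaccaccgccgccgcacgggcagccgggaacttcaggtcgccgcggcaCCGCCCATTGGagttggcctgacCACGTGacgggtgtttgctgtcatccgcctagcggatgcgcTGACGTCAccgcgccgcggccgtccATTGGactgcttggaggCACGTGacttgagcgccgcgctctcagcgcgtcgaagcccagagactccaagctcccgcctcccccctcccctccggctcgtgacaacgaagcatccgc

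The windows of Cluap1 and 1700037C18Rik share 181 bases and are read in opposite directions, and their genes differed by 0.71 and 0.16. Those of Ubn1 and Glyr1 share 246 bases, and their genes differed by 0.34 and 0.51. The Ubn1 window held 6 motif matches: the cAMP response element 91 bases before the start, 2 CACGTG boxes, 2 CCAAT boxes and a GC box. The Cluap1 window held none of the 8 motifs. Crebbp's window was the richest in G and C of the 6 shown, at 82.0%, with 2 overlapping GC boxes. In Vasn the 2 CCAAT matches overlap, 1 on each strand.

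Among all 31 genes with a window, the GC box was found in 17 (54.8%), where 35.7% of all 32851 windows hold it. CCAAT was found in 16 (51.6%; 37.4% of all windows) and the CAGCTG box, the sequence that the Tfap4 product binds, in 5 (16.1%; 16.3% of all windows). The cAMP response element was found in Trap1, Ubn1 and Glyr1 (9.68%; 1.79% of all windows), the last 2 by the same shared bases. CACGTG and the ETS motif were each in 8 genes (25.8%; 7.15% and 8.86% of all windows), TATAAA in Slx4 and Dnase1 (6.45%; 13.6% of all windows), and the forkhead motif in none (3.65% of all windows). The CACGTG, GC box and CCAAT matches of Ubn1 also lie in the bases it shares with Glyr1. The counts for these motifs therefore hold both genes by the same bases. A gene with several windows was counted if any of them held the motif, which can raise the shares of genes against those of all windows. The G and C content had a median of 60.8% over the 16 genes past the threshold with a window, ranging from 51.0% to 82.0%. It was 55.3% over the 15 others, ranging from 41.3% to 78.3%, and 52.7% over all windows. For a gene with several windows the highest G and C content was used. This can raise the medians over genes against the median over all windows.

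Genes elsewhere in the genome that work with those of the stretch were counted in 8 lists. Of 16 measured CREBBP partners and other acetyltransferases, 0 rose and 1 fell, the nuclear receptor coactivator gene Ncoa1 (793 ± 49.2 to 519 ± 34.7, SD, n = 3 each; difference -0.60, limma adjusted p = 0.0110). At an unadjusted p under 0.05, 2 were higher and 2 lower, and the median difference was 0.03. Of 15 genes of the mitochondrial import motor and chaperones, 0 rose and 4 fell. The 3 with the smallest adjusted p were the translocase regulator gene Dnajc15 (-0.41), the channel subunit gene Timm17a (-0.29) and the matrix protease gene Lonp1 (-0.47), and the list's median was -0.15. At an unadjusted p under 0.05, 0 of them were higher and 7 lower. Of 19 genes of lipid-linked oligosaccharide assembly, the pathway of Alg1, Dpm2 rose (0.33) and Srd5a3 fell (-0.49), with a median of -0.09; at an unadjusted p under 0.05, 1 was higher and 5 lower. Of 4 genes of mannose 6-phosphate tagging, the pathway of Nagpa, the receptor gene M6pr rose (0.28) and 0 fell, with a median of 0.02; at an unadjusted p under 0.05, 2 were higher and 0 lower.

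Among 15 SLX4 nuclease partners and crosslink repair genes, 0 rose and 2 fell, the telomere-binding gene Terf2 (-0.26) and the helicase gene Blm (-0.36), with a median of -0.16 and the same counts at an unadjusted p under 0.05. Of 16 adenylyl cyclase and cAMP-dependent kinase genes, Adcy6 rose (0.40) and 0 fell, with a median of -0.04; at an unadjusted p under 0.05, 1 was higher and 2 lower. The HIRA list of 6 genes, which counts histone H3.3 genes along with the complex, had 0 higher and 0 lower by limma. At an unadjusted p under 0.05, 1 of the list was higher and 1 lower, and its median was 0.13. Of 16 genes of intraflagellar transport complex B, the complex of Cluap1, 2 rose and 2 fell. Ift74 read 21.7, 30.1 and 23.6 in control and 206, 166 and 183 in PIK3CA shRNA cells (difference 2.29, limma adjusted p = 0.000464). Ttc30b rose by 0.50 and Hspb11 fell by 0.35 on the log2 scale, and the median over the complex was 0.00; at an unadjusted p under 0.05, 4 were higher and 3 lower. The background for these counts is the 5.88% of all genes called higher and the 5.62% called lower, and none was tested as a list. Of the 13 genes named here from these lists, Ift74 alone kept its call under every alternative, while Ncoa1 and Srd5a3 kept theirs whichever array was left out.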

How the data were processed

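Total RNA of 6 samples (3 control shRNA, 3 PIK3CA shRNA) was hybridised to Affymetrix arrays with a biotin label, per the labels' protocols. The authors' deposited table holds linear intensities of 45101 probe sets. The arrays had near-equal quartiles, so they had been brought to a common distribution, by a method not given in the sources used here. No detection calls were used.

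Arrays were scaled to the same median, 16 was added and log2 taken, leaving out the 64 control probe sets. By the platform annotation, 34945 probe sets had 1 symbol, 932 several and 9160 none; 34741 matched RefSeq genes of GRCm38.p6, whose coordinates are used. A gene is its 1-symbol probe set of highest mean. The groups were tested by limma 3.58.1 (R 4.3.3) over 18193 genes, with Benjamini-Hochberg adjustment, two-sided, at 0.05 (percent called: 11.5). The steps were tested on simulated data. Same-numbered samples did not deviate together, so no block was used.

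The stretch, its genes, the partner lists, motifs and markers were chosen with earlier results of these data known. The naming rule took every gene of the stretch, the 2 genes next to it, Pik3ca, and up to 3 called genes per partner list with the smallest adjusted p. Alternatives were a replicate block, quantile and upper-quartile scaling, pseudocounts of 1 and 64, a filter on dim genes, other probe set choices, another prior, a threshold of 0.01 and leaving out each array. Figures used matplotlib 3.10.9 in Python 3.11.15.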

Additional observations from a re-analysis of the deposited data

How the results depend on the processing

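All 20 genes of the stretch past the threshold kept a difference above 0 under every alternative fitted, and 0 genes passed as lower. The count of 20 was 17 to 22 under both scalings, both pseudocounts, the filter on dim genes, both probe set choices and the intensity trend with robust prior. It was 12 to 16 without 1 array, 10 at adjusted p 0.01, and 6 with the replicate number as a block. Over all genes the 2093 calls became 413 with that block, 636 at adjusted p 0.01, 3192 with the trend and robust prior, and 945 to 1138 without 1 array. The numbers do not pair the samples: same-numbered arrays had correlations of deviations of 0.05, -0.02 and -0.02. The median difference of the stretch, 0.49, was 0.46 at a pseudocount of 64, 0.51 without dim genes, 0.62 by the most variable probe set (largest interquartile range), 0.36 without Hmox2, Ppl and Coro7, and 0.43 to 0.54 without 1 array. That of the 20 genes after Alg1, 0.05, was -0.014 without dim genes and 0.13 by the most variable probe set. The choice of the most variable probe set takes in both groups, so it can favour the one with the larger difference. With the mean of probe sets Alg1, Mgrn1, Nmral1 and Ubn1 lost their calls and Adcy9, Anks3 and Cdip1 gained theirs. The cause of these changes was not tested. No measured gene lay before Mefv, so the left-hand comparison was not run. Signal over background limits the dim genes, whose values near the pseudocount carry little of a difference.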
